A study of Mus musculus with 3 samples.

Results

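The comparison set macrophages from the sciatic nerve 1 day after nerve crush against macrophages from uninjured nerve, by single-cell RNA sequencing. The cells were all barcodes in which 200 or more genes were detected and mitochondrial UMIs made up no more than 10%: 728 of 731 from steady state and 2793 of 2796 from day 1, together 3521 of the 5580 such cells in the 3 libraries of the single-cell series. A UMI, or unique molecular identifier, is a tag that counts each captured RNA molecule once. Both groups came from C57BL/6 mice, an inbred laboratory strain, and the only labelled difference was the injury: none in steady state, and a crush of the sciatic nerve 1 day earlier. The labels name 10x Genomics droplet chemistry v1. The sources used here do not give how the macrophages were sorted, the sex and age of the mice or the number of animals per library.

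Each group was 1 library, so there was no replicate, no test and no p-value, and every difference below is a difference between 2 libraries. UMIs were summed over the cells of a library and given as CPM, a gene's UMIs per 1000000 UMIs of that library. Folds are ratios of CPM, followed in parentheses by the 95% interval, which covers counting error only. A gene with 0 UMIs in a library was set to 3 UMIs (1.81 CPM in steady state, 0.377 CPM at day 1), and its fold is then given as "at least". A gene was called higher or lower when the CPM differed at least 2-fold and reached 10 in either library.

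Crushing a nerve severs its axons and leaves the sheath in place, and the nerve beyond the injury degenerates and is then cleared. Macrophages that live in the nerve and monocytes that enter from the blood take part in that clearance. Macrophages sense the tissue through receptors, act on it through secreted cytokines, growth factors, proteases and matrix proteins, and set their state through transcription factors and through the enzymes that handle sugars, lipids, amino acids and iron.

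The steady-state library held 1656510 UMIs and the day 1 library 7963091, with medians of 2238.5 and 2555 UMIs and 702.5 and 891 genes per cell, so low levels were measured with less precision in steady state. All 8 macrophage markers had UMIs in both libraries, summing to 39213 CPM in steady state and 25192 at day 1, and at least 3 of them were seen in 717 of 728 and 2281 of 2793 cells. The 6 monocyte markers summed to 266 CPM in steady state, with 2 of them at 0 UMIs, Vcan included, and to 2357 CPM at day 1 with none at 0. At least 3 of them were seen in 2 of 728 steady-state cells and 662 of 2793 day 1 cells. Leaving those cells out, an alternative chosen after seeing the data, left 726 and 2131 cells and gave 1144 genes higher and 1075 lower, near the counts below. The 8 dendritic cell markers summed to 197 CPM in steady state and 24.1 at day 1. Of the 197 CPM, 164 was Ccl17, seen in 7 of 728 cells. At least 3 of the dendritic cell markers were seen in 1 steady-state cell and 5 day 1 cells. Neutrophil markers summed to 116 and 69.2 CPM, with 7 of 8 at 0 in steady state and 4 at day 1. The steady-state sum was all Mmp9, seen in 103 of 728 cells and lower at day 1. S100a8, S100a9 and Ltf had 0 UMIs in steady state and some at day 1. B cell markers summed to 48.3 and 9.54 CPM. The part of these other cells in the results was not tested, beyond leaving out those that held the markers. Fibroblast, Schwann cell and endothelial markers each summed to at most 40.4 CPM, and the T cell and platelet markers had 0 UMIs in both libraries. The libraries shared 2 cell barcodes. In sums over cells, a change in which cells are present and a change in the RNA of a cell cannot be told apart.

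Of 27998 genes in the tables, 7036 reached 10 CPM in 1 or both libraries. At day 1, 1156 of these (16.4%) were higher and 1042 (14.8%) lower by 2-fold or more, with 4838 within 2-fold. At least 4-fold, the counts were 341 and 377, and at least 16-fold, 86 and 85. Counting only genes whose interval lay wholly beyond 2-fold gave 530 higher and 577 lower. The median log2 ratio of all tested genes was 0.11, with the 10th and 90th percentiles at -1.36 and 1.36. The genes that were higher held 22.6% of day 1 UMIs and 6.74% of steady-state UMIs, and those that were lower held 6.68% and 29.7%.

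**Figure D1:**
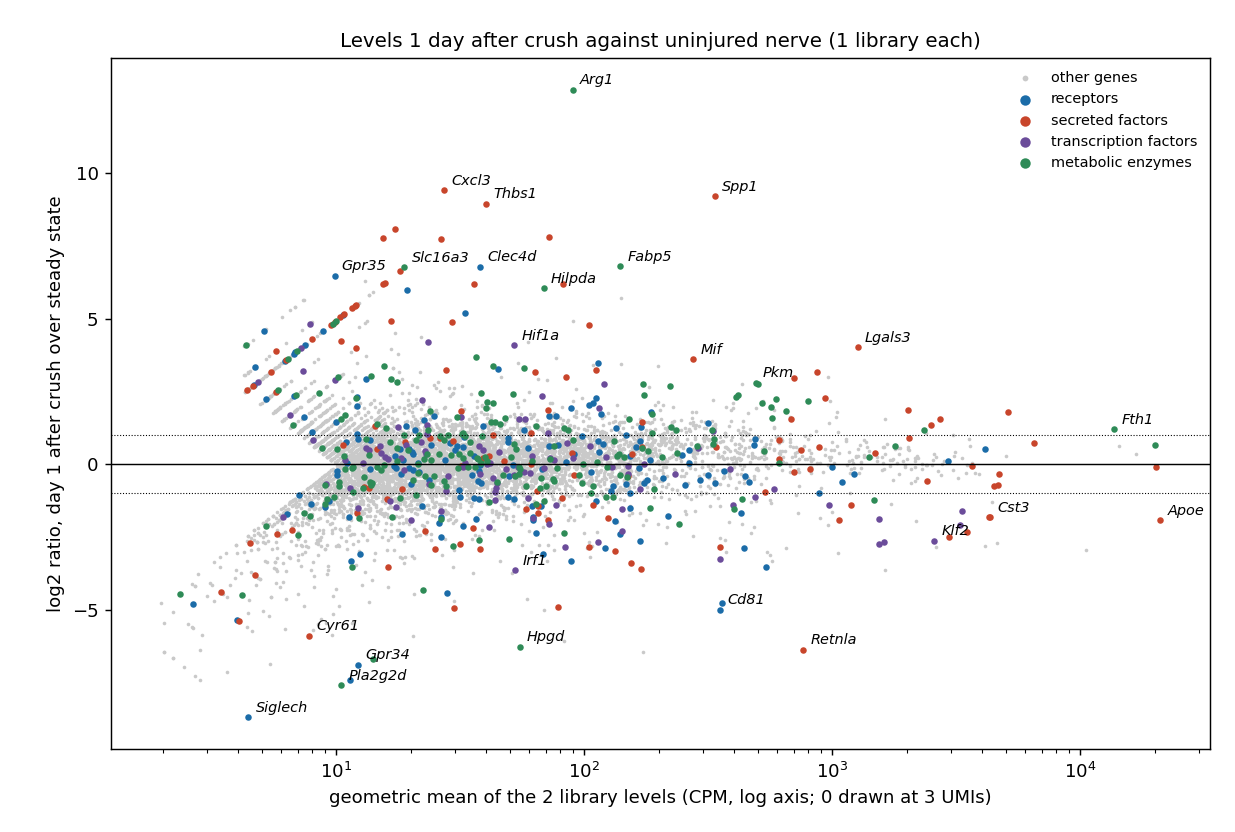
Each point is 1 of 7036 genes, with the geometric mean of both CPM levels on the horizontal log axis and the log2 ratio of day 1 over steady state on the vertical axis, coloured by gene family. Dotted lines mark 2-fold. Arg1, Cxcl3, Spp1 and Thbs1 stand highest and Siglech lowest, and the diagonal bands at the left are genes with 0 to a few UMIs in 1 library.

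Receptors, secreted factors, transcription factors and metabolic enzymes were followed in 20 lists of 798 genes, 594 of them above 10 CPM. Of these 594 genes, 180 were higher (30.3%, against 16.4% of all tested genes) and 142 lower (23.9%, against 14.8%). The lists were chosen with earlier results of these data known, so the distance from these shares is no test. Secreted factors were higher in 51 (40.8%) and lower in 37 (29.6%) of 125, and metabolic genes in 67 (33.5%) and 33 (16.5%) of 200. Receptors were higher in 42 (25%) and lower in 45 (26.8%) of 168, and transcription factors in 20 (19.8%) and 27 (26.7%) of 101. Enzymes of glycolysis and matrix or protease genes had the highest list medians, 1.97 and 1.55 on the log2 scale, and cytokines (-0.84) and eicosanoid genes (-0.63) the lowest. The cytokine median rests on 15 members, and their summed level was higher at day 1, at 1261 and 2852 CPM.

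The size of single ratios varied with the processing, mostly in the class of shallow cells. Of the 135 genes named by rule, 82 had a ratio that moved by over 1.5 times under at least 1 of 11 alternatives in the processing, 77 of them in the cells under 2000 UMIs and 35 under any of the others. The direction turned for 3 of them, and 126 were at least 2-fold the same way throughout. Several of the larger shifts are given beside the genes.

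**Figure D2:**
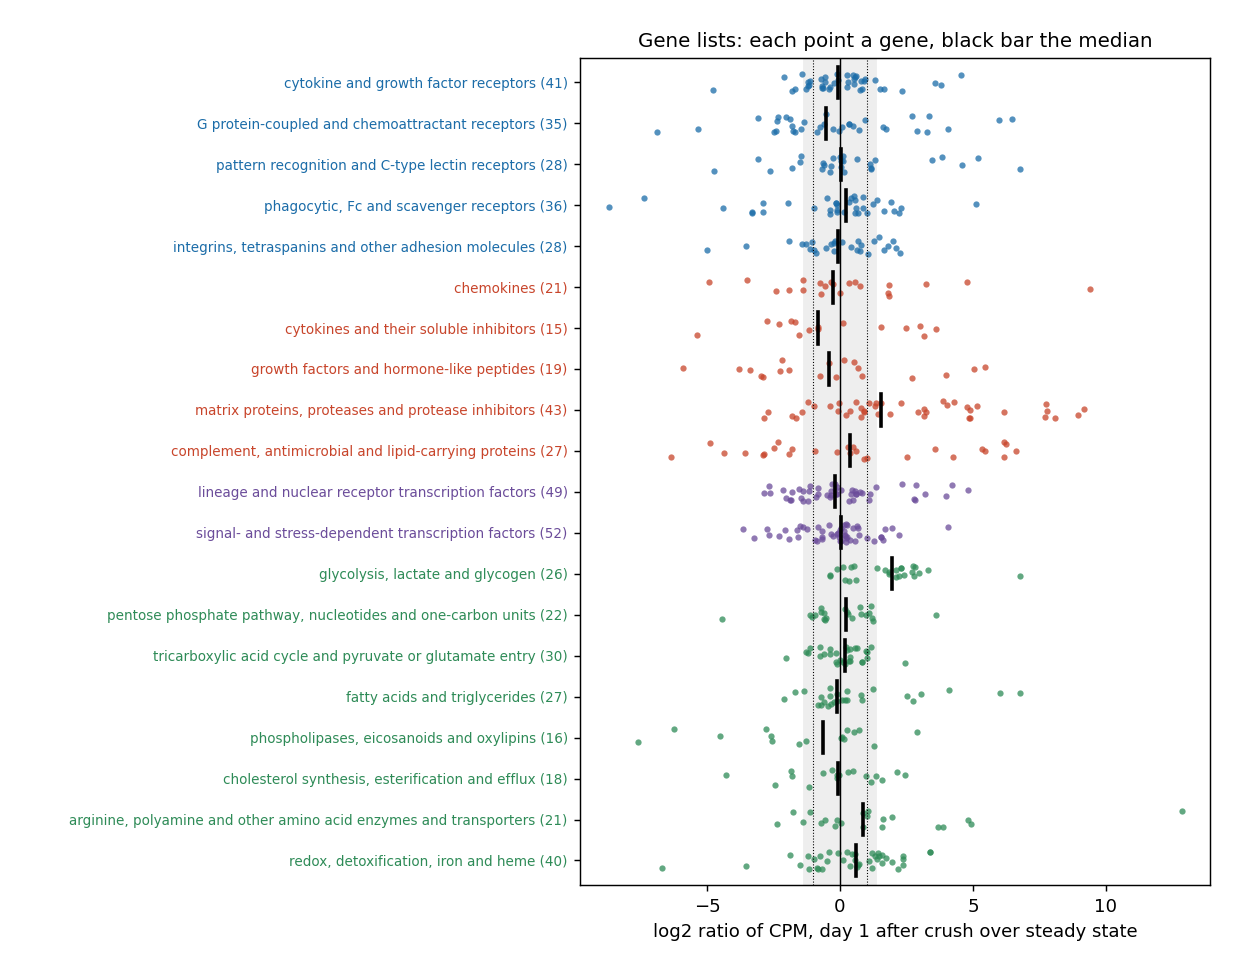
Each point is a tested gene of a list, placed by its log2 ratio of CPM at day 1 over steady state, with the list's size in parentheses and its median as a black bar. The grey band spans the 10th to 90th percentile of all 7036 genes (-1.36 to 1.36). Most of the glycolysis points lie above 0, while most other lists spread to both sides.

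Among 41 cytokine and growth factor receptors, 7 were higher (17.1%, near the 16.4% of all tested genes) and 10 lower (24.4%, against 14.8%), with a median log2 ratio of -0.07. Il4ra, the chain shared by the interleukin-4 and interleukin-13 receptors, was at 40.5 CPM in steady state and 128 at day 1, 3.16-fold higher (2.47 to 4.11). Il7r and Igf2r, which encode the interleukin-7 receptor and the receptor that takes up insulin-like growth factor 2, had 0 UMIs in steady state and stood at 25.2 and 21.4 CPM at day 1, at least 13.9-fold and 11.8-fold higher. The interleukin-1 decoy receptor Il1r2 had 1 UMI in steady state and stood at 14.3 CPM at day 1, a ratio of 23.7 (4.17 to 945). Csf2rb, the beta chain of the receptor for granulocyte-macrophage colony-stimulating factor, was 2.49-fold higher. Its relative Csf2rb2, which is not a chain of that receptor, was 5.03-fold higher. Csf2ra, the alpha chain that pairs with Csf2rb, differed less, at 138 and 169 CPM.

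The receptors that were lower included Csf1r, whose ligands keep macrophages alive, at 773 CPM in steady state and 239 at day 1, 3.23-fold lower (3.01 to 3.47). Axl, a receptor that binds dying cells through Gas6, was 3.49-fold lower (2.59 to 4.68), and its relative Mertk was at 20.5 and 18.7 CPM. Lifr, the leukaemia inhibitory factor receptor, was 4.3-fold lower (3.3 to 5.61). The interleukin-33 receptor Il1rl1 had 23 UMIs in steady state (13.9 CPM) and 4 at day 1 (0.502 CPM). Receptors of interleukin-6 (Il6ra, 2.67-fold) and transforming growth factor beta (Tgfbr2, 2.22-fold) were also lower, whereas both interferon-gamma receptor chains were within 2-fold, Ifngr1 at 421 and 271 CPM and Ifngr2 at 86.3 and 149.

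G protein-coupled and chemoattractant receptors differed in both directions, with 9 of 35 higher (25.7%) and 14 lower and a median of -0.54. Receptors that guide leukocytes were among those higher. The leukotriene B4 receptor Ltb4r1 had 4 UMIs in steady state (2.42 CPM) and was at 153 CPM at day 1, 63.4-fold higher (24.7 to 233). Fpr1, which senses formyl peptides from bacteria and mitochondria, had 0 UMIs in steady state and stood at 30.6 CPM at day 1, at least 16.9-fold higher. Cxcr4, the receptor of Cxcl12, was at 14.5 and 139 CPM, 9.62-fold higher (6.43 to 15.1), and Ccr1 was 3.31-fold higher (2.72 to 4.07). Gpr35 had 1 UMI in steady state and stood at 53.5 CPM at day 1, a ratio of 88.6 (15.8 to 3508). The adenosine receptor Adora2b was 7.51-fold higher (3.76 to 17.6).

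Receptors for nucleotides and lysophospholipids, several of them known as microglial markers, were among those lower. Gpr34, which binds lysophosphatidylserine, was at 133 CPM in steady state and 1.13 at day 1, 118-fold lower (60.8 to 260.4). The adenosine diphosphate receptors P2ry13 and P2ry12 were 40.4-fold (16 to 131) and 5.26-fold (3.69 to 7.5) lower, and the lysophosphatidic acid receptor Lpar1 was 8.48-fold lower (5.48 to 13.3). The log2 ratio of Lpar1, -3.08, was -1.33 in cells under 2000 UMIs and -4.32 with day 1 thinned to the steady-state total. The fractalkine receptor Cx3cr1 was at 116 and 33.3 CPM. The complement anaphylatoxin receptors C5ar1 (1349 and 881 CPM) and C3ar1 (352 and 242) and the monocyte chemokine receptor Ccr2 (223 and 316) stayed within 2-fold.

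Of 28 pattern recognition and C-type lectin receptors, 9 were higher (32.1%) and 6 lower (21.4%), and the lectins split. Clec4d, Clec4e and Clec4n, which sense glycolipids and mannans of microbes and damaged cells and signal through Fc receptor gamma chain, were at 3.62, 5.43 and 33.8 CPM in steady state. At day 1 they were at 398, 199 and 378 CPM, which is 109.8-fold (50.4 to 299), 36.7-fold (19.3 to 80.3) and 11.2-fold (8.6 to 14.9) higher. Trem1, an amplifier of inflammatory signalling, and Trem3 had 0 UMIs in steady state and stood at least 24.1-fold and 14.3-fold higher. The galactose-binding lectins went the other way. Mgl2 was at 1868 CPM in steady state and 69.6 at day 1, 26.9-fold lower (24.5 to 29.4), and Clec10a, which encodes its relative MGL1, was 6.15-fold lower (5.49 to 6.9). Clec4b1 was 8.51-fold lower (7.09 to 10.2). Receptors for bacterial lipids and lipopolysaccharide were within 2-fold, with Tlr2 at 117 and 97.1, Tlr4 at 25.4 and 15.8 and Cd14 at 2818 and 3027 CPM.

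Phagocytic, Fc and scavenger receptors were higher in 9 of 36 (25%) and lower in 8 (22.2%). Their summed level was close in both libraries, 10927 CPM in steady state and 10956 at day 1. Msr1, a scavenger receptor for modified lipoproteins, was 4.14-fold higher (3.33 to 5.21), and the integrin chain Itgav, which binds apoptotic cells through bridging proteins, was 4.95-fold higher (2.56 to 11). Cd300lf, a lipid-binding receptor, had 0 UMIs in steady state and stood at 63 CPM at day 1, at least 34.8-fold higher. The high-affinity Fc receptor Fcgr1 was at 194 and 510.4 CPM and Fcgr4 at 43.5 and 136 CPM. Lower at day 1 were Timd4, a receptor for phosphatidylserine on dying cells (21.4-fold, 15.6 to 29.96), the haemoglobin scavenger Cd163 (7.39-fold), the hyaluronan receptor Lyve1 (10-fold) and Lilra5 (168-fold, 80.4 to 423). The sialic acid-binding lectin Siglech had 86 UMIs in steady state and 1 at day 1, a ratio of 413 (72.2 to 16516). Mrc1, the mannose receptor, was within 2-fold at 356 and 278 CPM.

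Integrins, tetraspanins and other adhesion molecules had 8 of 28 members higher (28.6%) and 7 lower (25%). The integrin chains Itgam (4.81-fold, 3.86 to 6.05) and Itgb2 (2.42-fold, 2.07 to 2.83), which pair as complement receptor 3, were both higher, as was the hyaluronan receptor Cd44 (4.28-fold, 3.45 to 5.37). Sema4d, a semaphorin that guides axons and immune cells, was 4.04-fold higher (2.15 to 8.55). The tetraspanin Cd81 was at 1985 CPM in steady state and 62.5 at day 1, 31.7-fold lower (28.9 to 35), and with Cd83 it held most of the difference in the summed level, 7120 CPM in steady state and 3742 at day 1. Cd83, a surface protein of activated antigen-presenting cells, was 11.5-fold lower (10.8 to 12.3), and Icam1 3.72-fold lower (3.08 to 4.5).

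Chemokines were higher in 6 and lower in 6 of 21 (28.6% each), and their summed level was 34526 CPM in steady state and 38664 at day 1. The median log2 ratio was -0.26, and 0.48 in cells under 2000 UMIs. Cxcl3, which draws neutrophils, had 1 UMI in steady state and stood at 407 CPM at day 1, a ratio of 675 (121 to 26654). Its relative Cxcl2 was high in both libraries, at 5842 and 3483 CPM, and Cxcl1 was 2.66-fold lower. Ppbp, a platelet-type CXC chemokine, was 27.3-fold higher (19.4 to 39.7), while the 6 platelet markers had 0 UMIs in both libraries, and the related Pf4 was at 5066 and 8434 CPM. Ccl6 and Ccl9 were 3.47-fold and 3.63-fold higher, at 9545 and 3855 CPM at day 1, and Cxcl14 was 9.36-fold higher (5.63 to 16.8). Of the chemokines that draw monocytes, Ccl2 (5993 and 3639 CPM) and Ccl7 (5298 and 4195 CPM) were within 2-fold, and Ccl12 was 2.66-fold lower. Ccl3 was 3.82-fold lower (3.65 to 3.99) and Cxcl12, the ligand of Cxcr4, 11.4-fold lower (7.71 to 17.1), with a log2 ratio of -3.51 that ranged from -6.44 to -2.89 over the alternatives. Ccl17 was 30.4-fold lower (22 to 43), but its 272 steady-state UMIs lay in 7 of 728 cells. Its log2 ratio of -4.93 became -2.78 without the cells that held markers of another cell type and 1.72 in cells under 2000 UMIs. The marker gate uses Ccl17 itself and kept 727 of 728 steady-state cells, so the first shift rests on very few cells.

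Cytokines and their soluble inhibitors had 5 of 15 members higher (33.3%) and 7 lower (46.7%), leaving 3 within 2-fold. The median log2 ratio was -0.84, while the summed level was 1261 CPM in steady state and 2852 at day 1. Mif, a constitutively stored inflammatory mediator, was at 78.5 CPM in steady state and 959 at day 1, 12.2-fold higher (10.3 to 14.6). Osm, which encodes oncostatin M of the interleukin-6 family, was 8.08-fold higher (6.09 to 11). Interleukin-1 genes differed by member: Il1b was 2.94-fold higher (2.71 to 3.18), its receptor antagonist Il1rn 8.99-fold higher (6.44 to 13), and Il1a was at 24.8 and 13.8 CPM. Tnf was 2.93-fold lower (2.4 to 3.56) and Il10 was within 2-fold, at 18.1 and 10.2 CPM. Tnfsf13b, the B cell survival factor BAFF, was 41.3-fold lower (16.4 to 134). Ebi3, a subunit of interleukin-27, was 6.62-fold lower (5.07 to 8.68) and Il16 4.87-fold lower (3.54 to 6.68).

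Growth factors and hormone-like peptides were higher in 4 of 19 (21.1%) and lower in 8 (42.1%). Vegfa, the main growth factor for blood vessels, had 0 UMIs in steady state and stood at 79.99 CPM at day 1, at least 44.2-fold higher. The epidermal growth factor receptor ligand Areg had 3 UMIs in steady state and stood at 59.6 CPM at day 1, a ratio of 32.9 (11.2 to 160.3), and Gdf3 was 15.8-fold higher (6.7 to 48.8). Inhba, a subunit of activin A, had 0 UMIs in steady state and stood at 11.8 CPM at day 1. The bridging proteins Gas6 and Pros1, which link dying cells to Axl and Mertk, were 10.4-fold (9.22 to 11.8) and 4.55-fold (3.54 to 5.86) lower. Igf1, a growth factor that resident macrophages make for neighbouring cells, was at 139 CPM in steady state and 36.9 at day 1, and its binding protein Igfbp4 was 7.95-fold lower (6.99 to 9.06). Cyr61, a matrix-associated signalling protein, was 59.5-fold lower (29 to 142). Grn and Tgfb1 stayed within 2-fold.

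Matrix proteins, proteases and protease inhibitors were the secreted list with the most members higher, 26 of 43 (60.5%), with 6 lower (14%, near the background). Their summed level was 19574 CPM in steady state and 40638 at day 1, and without the cells holding monocyte markers 26 were higher and 5 lower. The members below are given by role, matrix proteins first. Spp1, osteopontin, was at 13.9 CPM in steady state and 8178 at day 1, 589-fold higher (392 to 929), with a log2 ratio of 9.01 to 11 over the alternatives. The fibronectin gene Fn1 was at 4.83 and 1084 CPM, 224-fold higher (114 to 520.1), and thrombospondin-1, Thbs1, had 3 UMIs in steady state against 893 CPM at day 1, a ratio of 493 (169 to 2392). The crosslinking enzyme Tgm2 and the proteoglycan Vcan, also one of the monocyte markers, had 0 UMIs in steady state and stood at 133 and 64.2 CPM at day 1. The clotting factor genes F7 (0 UMIs) and F10 (1 UMI in steady state) were at 50.1 and 132 CPM at day 1, while F13a1 was within 2-fold, at 749 and 384 CPM.

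Metalloproteases differed by member. Mmp14, which sits on the cell surface, and the elastase Mmp12 had 0 UMIs in steady state and stood at 53.9 and 16.3 CPM at day 1. Mmp19 was 30.1-fold (12.8 to 93) and Adam8 29.2-fold (15.3 to 64) higher. Mmp9 was 3.18-fold lower (2.64 to 3.83) and Mmp13 6.52-fold lower (3.1 to 14.1). The tissue inhibitors of these enzymes were split, with Timp1 at 1 UMI in steady state and 164 CPM at day 1, a ratio of 271 (48.5 to 10706), and Timp2 at 946 and 131 CPM, 7.22-fold lower (6.67 to 7.82). Cathepsins D, L and S of the lysosome were 4.91-fold, 7.74-fold and 2.92-fold higher, and Ctsk, at 0 UMIs in steady state, was at 35.5 CPM at day 1. Cathepsin B was within 2-fold (3749 and 3561 CPM). Their inhibitors were likewise split, since Cstb was 9.02-fold higher (8.24 to 9.9) and Cst3 3.53-fold lower (3.45 to 3.6). Plaur, the receptor that focuses plasminogen activation at the cell surface, was 9.44-fold higher (7.31 to 12.4), and the elastase inhibitor Slpi, at 0 UMIs in steady state, was at 385 CPM at day 1, at least 213-fold higher.

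Complement, antimicrobial and lipid-carrying proteins were higher in 10 and lower in 10 of 27 (37% each). Their summed level was 97026 CPM in steady state and 43136 at day 1, and the largest part of that difference was the lipid carrier Apoe, at 40937 and 10814 CPM, 3.79-fold lower (3.75 to 3.82). The acute phase genes Hp, haptoglobin, and Saa3, serum amyloid A3, were at 4.23 CPM and 0 UMIs in steady state. At day 1 they were at 307 and 179.7 CPM, 72.7-fold (35.2 to 181) and at least 99.2-fold higher. Gpnmb, a glycoprotein of lysosomes, also had 0 UMIs in steady state and stood at 136 CPM at day 1. Within complement, C3 was at 2.42 and 45.6 CPM, 18.9-fold higher (7.31 to 69.7), while the classical pathway genes were lower: C1qa 5.08-fold (4.95 to 5.2), C2 20.8-fold (8.38 to 61.9) and C4b 7.49-fold (5.87 to 9.6). Retnla, a protein induced by interleukin-4, was 82.3-fold lower (76.2 to 89.2), with a log2 ratio of -6.36 that was -4.64 in cells under 2000 UMIs and -7.50 in cells with at least 2000 UMIs. Also lower were the lectin Fcna (29.9-fold, 24.5 to 36.7) and the phospholipid transfer protein Pltp (12.1-fold, 10.7 to 13.6). Lysozyme, Lyz2, was near equal at 20924 and 19496 CPM.

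**Figure D3:**
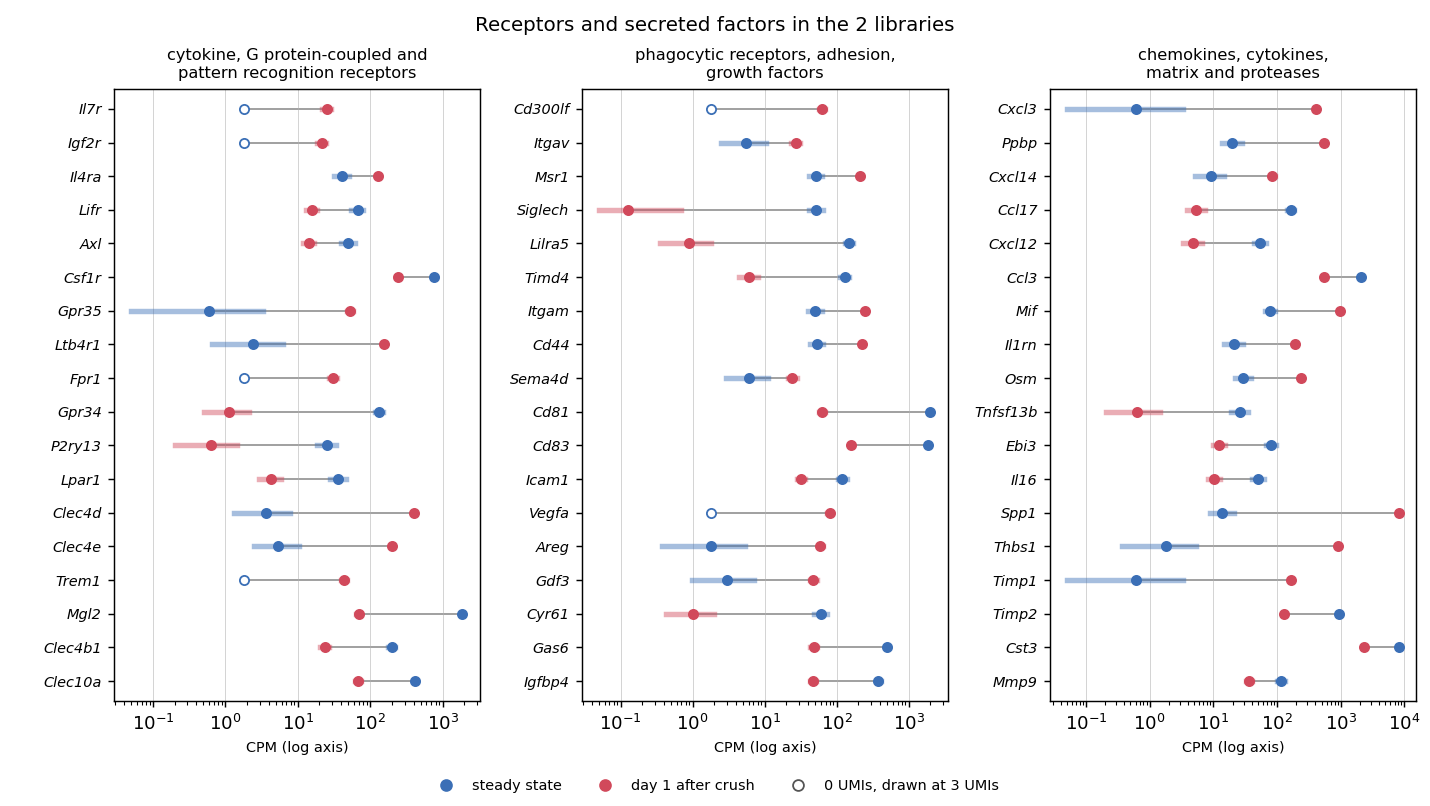
Each row is a gene, with its level in steady state (blue) and at day 1 (red) on a log CPM axis and shaded bars for the 95% counting interval of each level. Open circles are 0 UMIs drawn at 3 UMIs. Within most groups some genes lie red to the right of blue and others blue to the right of red, as for Timp1 and Timp2 or Clec4d and Mgl2.

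Transcription factors summed to 40992 CPM in steady state and 14468 at day 1, 2.83-fold lower (2.81 to 2.86), although by number 20 of 101 were higher (19.8%) and 27 lower (26.7%). Most of the difference lay in a few abundant factors of the immediate early and Krüppel-like families. Jun, Jund, Junb and Fos, subunits of the stress-responsive factor AP-1, were at 3996, 4066, 5843 and 6725 CPM in steady state and at 597, 641, 1919 and 1586 at day 1. That made Jun 6.69-fold (6.44 to 6.94) and Fos 4.24-fold (4.13 to 4.35) lower. Egr1, an immediate early zinc finger factor, was 9.46-fold lower (8.73 to 10.3). Klf2, which restrains inflammatory genes, was at 6367 and 1039 CPM, 6.13-fold lower (5.95 to 6.31), and Klf6 and Klf4 were 3.67-fold and 2.65-fold lower. Fosl2, a further AP-1 subunit, went the other way, at 32 and 93.2 CPM (2.91-fold higher, 2.2 to 3.92).

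Among the 52 signal- and stress-dependent factors, 9 were higher (17.3%, near the 16.4% of all tested genes) and 12 lower (23.1%, against 14.8%), with a median log2 ratio of 0.02. Hif1a, the oxygen-regulated subunit of hypoxia-inducible factor 1, was at 12.7 CPM in steady state and 215 at day 1, 16.9-fold higher (11.1 to 27.4). Its partner Arnt was at 13.3 and 17.2 CPM, within 2-fold. Interferon-linked factors split: Irf7 was 3.85-fold higher (3.13 to 4.77), whereas Irf1 was at 186 and 14.9 CPM, 12.4-fold lower (10.04 to 15.5). Mxd1, an antagonist of MYC, was 4.62-fold higher (2.85 to 8.03). All 5 subunits of NF-kappa B, the factor downstream of many inflammatory receptors, were within 2-fold, with Nfkb1 at 30.2 and 46.8 and Rela at 58.6 and 32.9 CPM. So were Nfe2l2, which drives antioxidant genes (112 and 134 CPM), and the stress factor Atf4 (153 and 148).

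Of 49 lineage and nuclear receptor factors, 11 were higher (22.4%) and 15 lower (30.6%). The higher ones included Nr1h3, the oxysterol receptor LXR alpha, with 3 UMIs in steady state and 28.9 CPM at day 1, a ratio of 15.9 (5.39 to 77.9). Bhlhe40 had 2 UMIs in steady state and 34.2 CPM at day 1, a ratio of 28.3 (7.76 to 235). Of the orphan nuclear receptors, Nr4a2 was 18.5-fold (9.69 to 40.6) and Nr4a3 9.26-fold (3.55 to 34.4) higher, and Nr4a1 was within 2-fold, at 237 and 347 CPM. Id2, an inhibitor of basic helix-loop-helix factors, and Nfil3 were 6.83-fold (5.43 to 8.7) and 5.05-fold (3.81 to 6.84) higher. Mef2c, which supports microglial and macrophage enhancers, was 6.33-fold lower (5.5 to 7.27) and Lyl1 7.23-fold lower (6.14 to 8.52), while Mef2a was 2.12-fold higher. Maf, a factor of mature macrophages, was within 2-fold, at 225 and 126 CPM. The factors that define the myeloid lineage were within 2-fold, Spi1 at 411 and 366, Irf8 at 168 and 134 and Cebpa at 67 and 54.6 CPM. Cebpb was 2.16-fold lower (2.01 to 2.31), and Nr3c1, the glucocorticoid receptor, 3.58-fold lower (2.96 to 4.32).

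**Figure D4:**
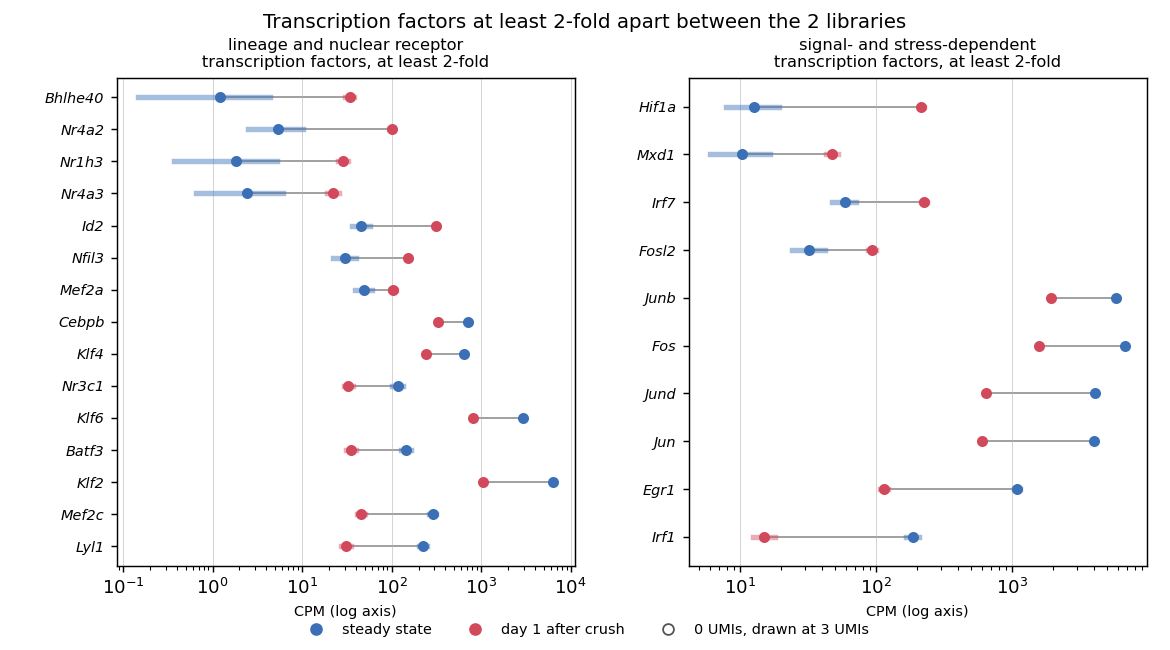
The rows are the described transcription factors that were higher or lower, ordered by ratio from the highest at the top, with steady state in blue, day 1 in red and shaded 95% counting intervals on a log CPM axis. The abundant factors, such as Klf2, Fos and Jun, all lie in the lower part with blue to the right, while the factors in the upper part have lower levels.

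Glycolysis, lactate and glycogen genes were higher in 17 of 26 tested members (65.4%, against 16.4% of all tested genes) and lower in none. The summed level of the list was 1929 CPM in steady state and 8144 at day 1, 4.22-fold higher (4.08 to 4.38). Without the cells holding monocyte markers it was 1924 and 7889 CPM, again with 17 members higher and none lower. The steps from fructose phosphate to lactate export were all represented. Pfkl, the phosphofructokinase of the committed step, was at 20.5 and 88.7 CPM, 4.32-fold higher (3.06 to 6.29), and aldolase Aldoa 4.3-fold (3.9 to 4.76). Tpi1 was 6.5-fold, Gapdh 3.58-fold, Pgam1 6.76-fold and enolase Eno1 4.94-fold higher. The phosphoglycerate kinase Pgk1, the first step to yield ATP, was at 18.1 and 179.6 CPM, 9.92-fold higher (6.92 to 14.8). Pyruvate kinase Pkm was 6.96-fold (6.21 to 7.82) and lactate dehydrogenase Ldha 4.72-fold (4.3 to 5.2) higher.

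At both ends of the pathway transport was higher too. The glucose transporter Slc2a1 was at 6.64 and 46.5 CPM, 7-fold higher (3.87 to 14.1), and the lactate exporter Slc16a3 had 3 UMIs in steady state and stood at 196 CPM at day 1, a ratio of 108 (36.9 to 524). The hexokinases, which trap glucose in the cell, were an exception: Hk1 was at 12.1 and 11.1, Hk2 at 28.4 and 21.7 and Hk3 at 35 and 39.6 CPM, all within 2-fold. Gpi1, the next enzyme, was also within 2-fold (206 and 272 CPM). Pdk1, a kinase that holds pyruvate out of the mitochondrion, was 4.9-fold higher (2.53 to 10.9), as were the mitophagy receptor Bnip3 (5.37-fold, 3.87 to 7.67) and the glycogen phosphorylase Pygl (7.91-fold, 3.58 to 21.8). Several of these enzymes have processed pseudogenes, and the sources used here do not give how reads shared with such copies were counted.

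The promoters of the glycolysis list were searched for ACGTG on either strand (reverse complement CACGT), letters that hypoxia-inducible factors are known to bind. The windows were the 250 bases before each start site in RefSeq (GRCm38.p6, the assembly of mm10, the build the submitters' processing notes name). The letters were found in 21 of 46 windows of the glycolysis list (45.7%), in 1631 of 6992 windows of all tested genes (23.3%) and in 5444 of 32851 windows in all (16.6%). In the list, they were in 13 of 25 windows of the higher members (52%) and in 5 of 11 windows of the members within 2-fold (45.5%). These shares rest on few windows. For the tricarboxylic acid cycle list the share was 38.9%. A match is a run of letters and does not show binding, and whether Hif1a acted on these genes was not tested. The stretches below, each 80 bases with the matches in capitals and 5′ to 3′ on the gene's strand, come from 4 higher genes and from Hk2, which had a match and was within 2-fold. They are upstream of the start site, and none overlapped an annotated exon in GENCODE M21.
Pgk1 (chrX:106186931-106187010, + strand): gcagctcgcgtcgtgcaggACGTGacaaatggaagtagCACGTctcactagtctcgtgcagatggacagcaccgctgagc
Ldha (chr7:46845724-46845803, + strand): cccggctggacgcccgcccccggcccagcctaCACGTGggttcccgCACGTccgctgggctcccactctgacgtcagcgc
Bnip3 (chr7:138909572-138909651, - strand): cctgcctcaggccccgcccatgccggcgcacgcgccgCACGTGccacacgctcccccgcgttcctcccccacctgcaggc
Aldoa (chr7:126799339-126799418, - strand): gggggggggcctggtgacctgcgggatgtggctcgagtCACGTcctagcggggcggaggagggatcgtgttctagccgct
Hk2 (chr6:82774465-82774544, - strand): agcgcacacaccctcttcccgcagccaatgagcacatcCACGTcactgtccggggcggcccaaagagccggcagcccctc
The match nearest the start site began 131 bases before it in Pgk1, 34 in Ldha, 107 in Bnip3, 126 in Aldoa and 52 in Hk2.

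The tricarboxylic acid cycle and its entry points, which burn pyruvate in the mitochondrion, were higher in 4 and lower in 4 of 30 (13.3% each, near the background), and the summed level was 2390 CPM in steady state and 2273 at day 1. Without the cells holding monocyte markers 2 were higher and 4 lower. The higher members were the aspartate aminotransferase Got1 (5.49-fold, 3.74 to 8.38), the malate dehydrogenase Mdh2 (2.24-fold, 1.98 to 2.56), Ogdh (2.02-fold, 1.41 to 2.98) and the citrate-splitting enzyme Acly (2.03-fold, 1.34 to 3.2). The log2 ratio of Acly, 1.02, was 0.95 with a stricter filter on cells, 0.92 without the cells holding monocyte markers and 0.85 with day 1 thinned to the steady-state total. Among the isocitrate dehydrogenases, Idh2 was 2.2-fold lower (1.91 to 2.53) and Idh3g 2.4-fold lower (1.99 to 2.88), while Idh3a was at 23.5 and 46.3 CPM and Idh1 at 58 and 51.9. Citrate synthase Cs (30.2 and 39.6 CPM) and the succinate dehydrogenase subunit Sdha (91.2 and 54 CPM) were within 2-fold. Glul, which makes glutamine, was at 491 and 118 CPM, 4.15-fold lower (3.78 to 4.57).

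In the pentose phosphate, nucleotide and one-carbon list, 5 of 22 were higher (22.7%, against 16.4% of all tested genes) and 3 lower (13.6%, near the background). Pgd and Taldo1, enzymes of the pentose phosphate pathway, were 2.4-fold (1.93 to 3.01) and 2.24-fold (2.01 to 2.5) higher, and its entry enzyme G6pdx was at 33.2 and 22.1 CPM. Nt5e, the surface enzyme CD73 that makes adenosine, had 0 UMIs in steady state and stood at 22.5 CPM at day 1, at least 12.4-fold higher. Entpd1, the CD39 enzyme that supplies its substrate, was 2.05-fold lower (1.45 to 2.88), but its log2 ratio of -1.04 became 0.92 in cells under 2000 UMIs. Mthfs, a folate enzyme, was 2.28-fold higher (1.84 to 2.85), a log2 ratio that came to 0.96 in cells under 2000 UMIs. Rrm2, the ribonucleotide reductase subunit made in dividing cells, had 18 UMIs in steady state and 4 at day 1 (10.9 and 0.502 CPM), and the 6 cycling cell markers summed to 83.3 CPM in steady state and 17.1 at day 1.

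Lipid genes split by function. In the fatty acid and triglyceride list, 7 of 27 were higher (25.9%) and 3 lower (11.1%, against 14.8%), and the summed level was 1291 CPM in steady state and 4334 at day 1. Nearly all of that difference lay in 3 genes that carry and store lipid. The fatty acid-binding protein Fabp5 was at 13.3 and 1466 CPM, 110.4-fold higher (72.9 to 176). The lipid droplet protein Hilpda was at 8.45 and 557 CPM, 65.9-fold higher (39.3 to 121), and the droplet coat protein Plin2 was at 195 and 1301 CPM, 6.67-fold higher (5.97 to 7.48). Fabp4, the adipocyte-type relative of Fabp5, was at 4.83 and 39.8 CPM. The oxidation enzymes that reached 10 CPM were within 2-fold, among them Cpt1a (15.1 and 14.1 CPM), Acadl (30.2 and 34.7) and Hadha (26.6 and 45.5). Cpt2, under 10 CPM in both libraries, was at 9.66 and 3.64 CPM. The Acsl genes, which activate fatty acids, split. Acsl1 and Acsl3 were 2.56-fold (1.49 to 4.3) and 4.33-fold (2.16 to 8.61) lower, Acsl4 was 5.8-fold higher (2.21 to 21.8) and Acsl5 was within 2-fold.

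Phospholipase, eicosanoid and oxylipin genes were lower in 8 of 16 members, against 14.8% of all tested genes, and higher in 2 (12.5%). The inducible cyclooxygenase Ptgs2, which starts prostaglandin synthesis, was 7.53-fold higher (4.05 to 15.8), and its constitutive relative Ptgs1 was at 92.4 and 15.3 CPM, 6.03-fold lower (4.72 to 7.71). Hpgd, which inactivates prostaglandins, was at 479.9 and 6.28 CPM, 76.4-fold lower (57.4 to 104), and the prostaglandin D synthase Hpgds was 5.86-fold lower (4.75 to 7.25). Of the leukotriene genes, Alox5 was 6.97-fold (5.28 to 9.23) and Ltc4s 2.93-fold (2.72 to 3.16) lower, while Alox5ap and Lta4h, which forms leukotriene B4, were within 2-fold. The secreted phospholipase Pla2g2d was at 145 CPM in steady state and had 6 UMIs at day 1, 192-fold lower (87.1 to 529). Pla2g7, which degrades platelet-activating factor, was 2.44-fold higher (2.14 to 2.8), with a log2 ratio of 1.29 that became 0.51 in cells under 2000 UMIs.

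Cholesterol genes were higher in 5 and lower in 5 of 18 (27.8% each). Soat1 and Nceh1, which esterify cholesterol for storage and release it again, were 3-fold (2.22 to 4.14) and 4.38-fold (3.07 to 6.46) higher. The efflux pump Abca1 was 2.24-fold higher (1.5 to 3.49), with a log2 ratio of 1.16 that became -0.19 in cells under 2000 UMIs. Cyp27a1 and Ch25h, which make oxysterols, were 19.7-fold (13.9 to 28.6) and 3.52-fold (2.41 to 5.11) lower. The squalene synthase Fdft1 was 3.6-fold lower (2.32 to 5.57), but the log2 ratio of -1.85 became -0.27 without the cells holding markers of another type. That gate kept 727 of 728 steady-state cells, so the shift rests on very few cells.

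Arginine, polyamine and other amino acid genes were higher in 10 of 21 (47.6%) and lower in 4 (19%), or 9 and 4 without the cells holding monocyte markers, and their summed level was 1638 CPM in steady state and 6385 at day 1, mostly Arg1. Arg1, the arginase that makes ornithine, had 1 UMI in steady state (0.604 CPM) and 35699 at day 1 (4483 CPM), a ratio of 7426 (1333 to 293329), with a log2 ratio of 9.06 to 13.32 over the alternatives. Arg2, its mitochondrial relative, had 0 UMIs in steady state and stood at 26.6 CPM at day 1, at least 14.7-fold higher. Odc1, which turns ornithine into the polyamine putrescine, was at 10.3 and 132 CPM, 12.8-fold higher (7.97 to 22.1), and the later polyamine enzymes Srm and Sms were 2.07-fold (1.47 to 2.98) and 2-fold (1.29 to 3.27) higher. Ass1, which rebuilds arginine, had 3 UMIs in steady state and stood at 51.6 CPM at day 1, a ratio of 28.5 (9.68 to 139). The cystine importer Slc7a11 had 0 UMIs in steady state and stood at 54.8 CPM at day 1, at least 30.2-fold higher. Gatm, which draws arginine toward creatine, was 5.17-fold lower (4.39 to 6.09). Mat2a and Slc38a2 were 2.17-fold and 2.6-fold lower and came to just under 2-fold in cells with at least 2000 UMIs.

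Redox, detoxification, iron and heme genes were higher in 17 of 40 (42.5%) and lower in 6 (15%, near the background). Genes of the glutathione and thioredoxin systems, which reduce oxidised proteins and peroxides, were among those higher. Gsr, glutathione reductase, was at 13.3 and 137 CPM, 10.3-fold higher (6.8 to 16.6), Srxn1, sulfiredoxin, 10.3-fold higher (5.2 to 24.1) and thioredoxin Txn1 5.17-fold higher (4.61 to 5.82). The peroxiredoxins Prdx1, Prdx5 and Prdx6 were 3.9-fold, 4.51-fold and 5.24-fold higher, while Prdx2, Prdx3 and Prdx4 were within 2-fold. The heme oxygenase Hmox1 was at 327 and 993 CPM, 3.04-fold higher (2.79 to 3.32), and the ferritin heavy chain Fth1 2.3-fold higher (2.27 to 2.34). Slc40a1, ferroportin, the exporter of iron, was 11.6-fold lower (7.28 to 18.9). Catalase, Cat, was 3.67-fold lower (2.73 to 4.92) and the sulfotransferase Sult1a1 104-fold lower (56.8 to 210.3). Over the alternatives the log2 ratio ranged from -5.61 to -2.55 for Slc40a1 and from -8.30 to -4.60 for Sult1a1. Of the oxidase subunits that make superoxide, Cyba, Ncf1 and Ncf4 were 2.28-fold, 2.5-fold and 2.96-fold higher and Cybb, the catalytic chain, was at 257 and 143 CPM.

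**Figure D5:**
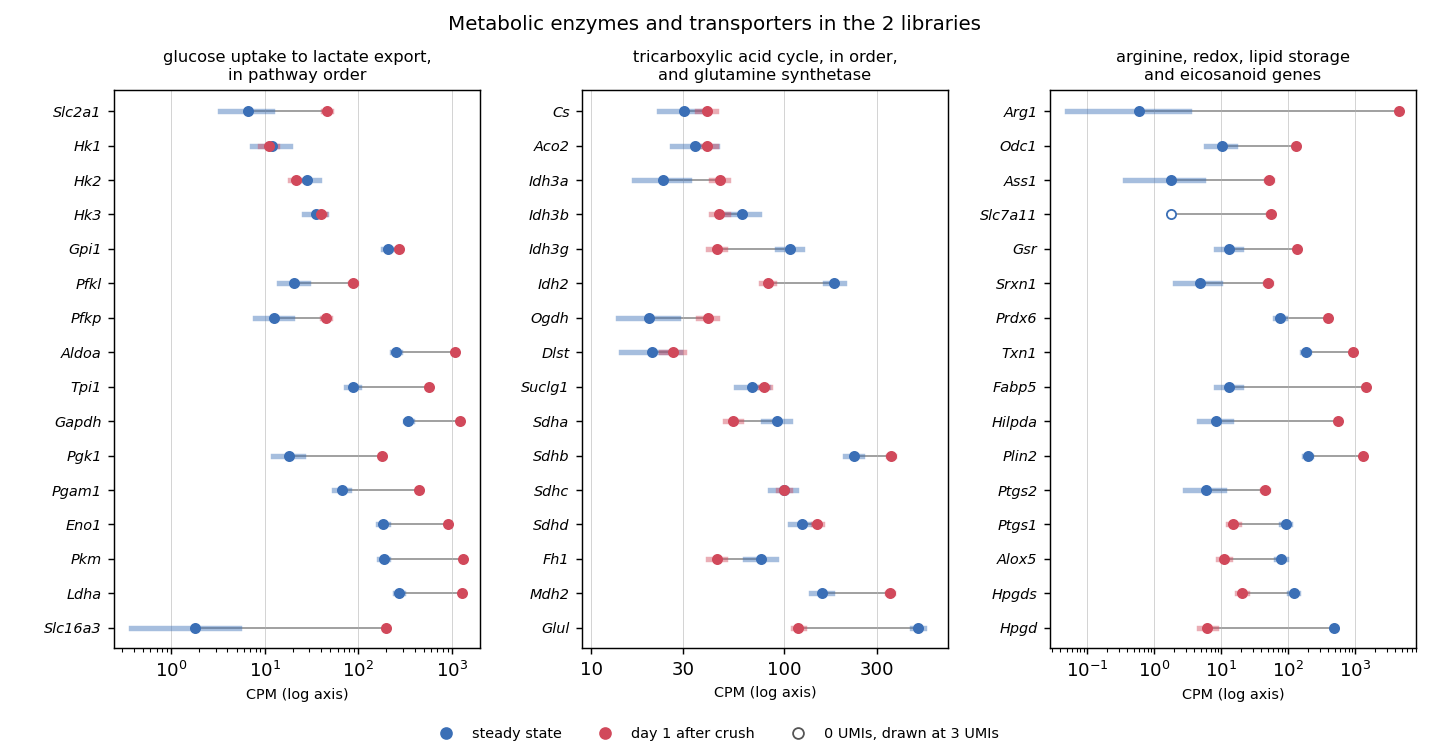
The rows are metabolic genes with steady state in blue, day 1 in red and shaded 95% counting intervals on log CPM axes of different range. In the left panel the enzymes from Pfkl to Slc16a3 all lie to the right at day 1 and the hexokinases lie close together, in the middle panel red lies to either side of blue, and in the right panel Ptgs2 and Ptgs1 lie in opposite order.

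Outside the lists, the 12 genes of at least 100 CPM with the largest ratios were at least 8.04-fold higher. The interferon-induced Ifitm1 and the growth factor-binding protein Igfbp6 had 0 UMIs in steady state and stood at 132 and 102 CPM at day 1, at least 72.8-fold and 56.3-fold higher. Plac8 and Ly6c2, monocyte genes, were at 19.3 and 13.9 CPM in steady state and 1017 and 251 at day 1, 52.6-fold (37.3 to 77) and 18.1-fold (12 to 28.6) higher. The log2 ratio of Ly6c2 was 4.18 and became 6.43 without the cells holding monocyte markers, a gate that uses Ly6c2 itself, and that of Gngt2, a G protein gamma subunit, was 3.64 and became 6.03. In steady state the 23 UMIs of Ly6c2 lay in 3 cells and the 36 of Gngt2 in 6. That gate left out 2 steady-state cells, so both shifts rest on very few cells. Rgcc, Rgs1, Ms4a4c, Sirpb1c and Aprt were 10.5-fold to 30.3-fold higher, Ly6a had 3 UMIs in steady state and a ratio of 55.6 (19 to 270.2), and the actin-binding Tmsb10 was at 338 and 2717 CPM, 8.04-fold higher (7.39 to 8.75).

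The 12 with the smallest ratios were at least 10.02-fold lower, and 5 were Cd209 lectins, relatives of the pathogen receptor DC-SIGN. Cd209f was at 1618 CPM in steady state and 18.3 at day 1, 88.3-fold lower (74.7 to 105), and Cd209g, Cd209b, Cd209d and Cd209a were 66.9-fold, 60.2-fold, 24.7-fold and 13.2-fold lower. Over the alternatives the log2 ratio ranged from -8.58 to -4.23 for Cd209f, from -8.16 to -3.75 for Cd209g, from -9.14 to -3.02 for Cd209b and from -5.94 to -2.72 for Cd209d, with both ends in the classes of cells by depth. These genes are close copies, so the share of each in the reads is uncertain. Sepp1, a selenium carrier, was at 5741 and 465 CPM, 12.3-fold lower (11.9 to 12.8), and Tmem176b 10.04-fold lower (9.43 to 10.7). The organic anion transporter Slco2b1, the sialyltransferase St3gal6, the sodium pump regulator Fxyd2, Cd33 and Slamf9 were 10.02-fold to 32.5-fold lower.

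To see how widely these genes were spread over cells, each cell was thinned to 1000 UMIs, which left 638 steady-state and 2496 day 1 cells and removed 90 and 297 shallower ones. A UMI of Arg1 was found in 0.157% of thinned steady-state cells and 74% of day 1 cells (0.137% and 84.6% before thinning), and of Spp1 in 0.94% and 73.4% (1.24% and 85.8%). For Hilpda the thinned shares were 0.47% and 29.2%, and for Clec4d 0.313% and 27.4% (before thinning 1.24% and 44.2%, and 0.549% and 45.8%). Vegfa, at 0 of 638 thinned steady-state cells (exact 95% upper limit 0.577%), was in 7.09% of day 1 cells (14.9% before). Among genes that were lower, Mgl2 was in 70.5% and 3.49% of thinned cells (80.9% and 5.48% before), Cd81 in 74.9% and 4.65% (86.5% and 7.77%), and Csf1r in 46.7% and 19.3% (69.5% and 38.6%). Free RNA can put UMIs in cells that do not express a gene. In the 5 day 1 cells with at least 3 dendritic cell markers, whose median depth was 2317 UMIs against 2555 for all day 1 cells, after thinning 2 had Arg1, 1 had Spp1 and none had Clec4d or Hilpda, but all 5 had Fabp5. So few cells give little measure of that background, and steady state had 1 such cell.

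The third library, of 2059 cells from day 5 after crush, gives the levels side by side without a test. The glycolysis list summed to 3198 CPM at day 5, against 1929 in steady state and 8144 at day 1, and the arginine and polyamine list to 1952, against 1638 and 6385. Arg1 was at 209 CPM, Hilpda at 132, Clec4d at 74.9 and Spp1 at 2406 at day 5. Transcription factors summed to 16477 CPM, and Jun, Klf2 and Irf1 were at 816, 1107 and 47.1 CPM. The complement and lipid carrier list was at 102574 CPM, nearer to steady state than to day 1, with Apoe at 53930 CPM, while Gpnmb was at 129 CPM.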

How the data were processed

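The authors deposited tables of UMI counts per gene and cell, 1 per library. Per the submitters' processing notes, Cell Ranger 2.0.2 and mm10 were used, and the sources used here do not give how multi-mapped reads and doublets were handled. No doublet caller was run. Counts were summed over the kept cells of each library and scaled to CPM with Python 3.11.15, pandas 2.3.3 and numpy 2.4.6. Ratio intervals at 95% are exact conditional binomial intervals from SciPy 1.17.1. Scripts were tested on simulated data.

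The comparison and the gene lists were chosen with earlier results of these data known. Of the list names, 3 had no entry in the tables, and 1 marker name had none. Named genes were up to 3 per list and direction with the largest ratios, among members of at least 20 CPM in either library and at least 2-fold, plus 12 per direction of no list with at least 100 CPM, 135 in all. Other list members printed were chosen after their values were seen, and a few list members counted in the totals are not reported here by name.

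Alternatives were edgeR 4.0.16 TMM scaling, a median-ratio scaling, other minimum CPM, stricter cell filters, depth classes of cells, a mean over cells, thinning, and leaving out cells with markers of another type. Leaving out cells with at least 3 monocyte markers was added after seeing the data.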

Additional observations from a re-analysis of the deposited data

How the results depend on the processing

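No paired analysis was possible because each group has 1 library. Of the 135 named genes, 126 stayed at least 2-fold in the same direction under all 11 alternatives, and the others are Ccl17, Mthfs, Entpd1, Acly, Pla2g7, Abca1, Fdft1, Slc38a2 and Mat2a. In cells under 2000 UMIs the log2 ratio turned sign for Ccl17 (1.72), Entpd1 (0.92) and Abca1 (-0.19). In that class 1605 of 7288 tested genes were higher and 1593 lower. With a minimum of 50 CPM, 516 genes were higher and 348 lower, and with no minimum 1872 and 2411, so that genes higher made up 59.7% and 43.7% of those called, against 52.6% with the minimum of 10 CPM. The cause was not tested, beyond the number of genes each minimum admits. With 1 library a group, no spread between animals is known, and depth limits steady-state levels of a few UMIs.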

Other observations

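Some related genes differed in opposite directions between the same 2 libraries, and others in the same direction. The genes below were chosen after their values were seen, and are given as values. The tetraspanin Cd9 was at 99.6 CPM in steady state and 344 at day 1, whereas Cd81, with which it shares partners, was at 1985 and 62.5. Vegfa had 0 UMIs in steady state and stood at 79.99 CPM at day 1, and Vegfb was at 14.5 and 3.01 CPM. Of the chemokine pair Cxcl12 and its receptor Cxcr4, the ligand was at 54.3 and 4.77 CPM and the receptor at 14.5 and 139. The light and heavy chain genes of ferritin, the iron store, were both above steady state, Ftl1 within 2-fold at 15912 and 25165 CPM and Fth1 at 9026 and 20789, while Mt1, a metallothionein that binds zinc and copper, was at 2251 and 967. The beta-galactoside lectins Lgals3 and Lgals1 were both higher, at 315 and 5083 CPM and 1570 and 3982 CPM. The antigen-presenting cell factor Batf3 was at 146 CPM in steady state and 35.3 at day 1.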
